A study of Mus musculus with 43 samples.

Results

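The genes described here are 8 of the 22622 gene identifiers measured in mouse inguinal white adipose tissue, a subcutaneous depot near the hind limb: Ttpa, Gpr179, Tmem215, Flvcr2, Gcgr, Akr1cl, St3gal6 and the long non-coding RNA 9330133O14Rik. They were chosen by their measured fold changes and p-values, as genes among the largest or most certain rises in libraries labelled Prx1-cre at P25 or at 9 weeks, so their values in those 2 comparisons are a description and carry no test. The rule states no cut-off. On GRCm38.p6 the genes lie at chr4:20007894-20030822 (Ttpa), chr11:97332109-97352356 (Gpr179), chr4:40472180-40475653 (Tmem215), chr12:85746539-85813586 (Flvcr2), chr11:120529185-120538989 (Gcgr), chr1:65013078-65032759 (Akr1cl), chr16:58469742-58524260 (St3gal6) and chr8:122443656-122446476 (9330133O14Rik), per RefSeq. The whole series holds 43 poly(A) RNA libraries in 9 groups, deposited as 5 separately normalized tables of normalized counts, and its title sets beige fat cells that form around weaning against those recruited by cold.

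At P25 and 22 C, 8 libraries came from mice with floxed Bcl6 and Prx1-cre and 7 from mice with floxed Bcl6 alone. At 9 weeks and 4 C there were 4 libraries of floxed Bcl6 with Prx1-cre and 4 of floxed Bcl6 alone. At P28, C57BL/6J mice kept at 30 C (n = 4) and mice with floxed TrkA and Th-cre kept at 22 C (n = 4) were both set against the same 4 libraries of C57BL/6J mice at 22 C. The last table set C57BL/6J mice at 9 weeks and 4 C (n = 4) against C57BL/6J mice at 9 weeks and 22 C (n = 4). The TrkA animals therefore have wild-type controls and not floxed littermates without Cre, and no group holds Prx1-cre without floxed Bcl6. The labels do not state that each sample is a different animal, and the p-values cover only sample-to-sample spread. In bulk tissue, fewer cells of a type and less RNA per cell cannot be told apart.

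BCL6 is a zinc finger protein that represses transcription by binding DNA and recruiting corepressor complexes, and it is best known from germinal centre B cells. In mouse liver it shares binding sites with STAT5, the factor activated by growth hormone and prolactin. Prx1-cre makes Cre recombinase in mesenchyme of the limb buds and its descendants, which include cells of the inguinal depot. TrkA is the receptor for nerve growth factor, and Th-cre is active where the tyrosine hydroxylase gene is, as in sympathetic neurons, whose cell bodies lie outside the depot. Beige adipocytes are fat cells that burn fuel for heat through the uncoupling protein Ucp1.

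Neither release from repression nor the loss of Bcl6 could be checked from these values, which are RNA levels summed over whole genes. Libraries labelled Prx1-cre had the higher Bcl6 gene total, 2714 ± 584 (SD, n = 8) against 825 ± 340 in floxed libraries (SD, n = 7) at P25, and 11609 ± 2339 against 1995 ± 392 at 9 weeks (SD, n = 4 each). Such a total does not show which exons were read. Estimated depth ran from 3503000 to 30730000 reads per library, and 1 read was worth 0.693 to 1.94 normalized counts, so a value near 1 stands for about 1 read. Of the 9 thermogenic markers tested, 6 were lower and 1 higher with Prx1-cre at P25, and 8 were lower at 9 weeks (limma adjusted p below 0.05), while of 10 macrophage markers 0 were higher at P25 and 8 at 9 weeks. The sum over the macrophage markers was 18412 to 32081 in Prx1-cre and 11020.2 to 14234 in floxed libraries at 9 weeks. The skeletal muscle markers summed to 617161 in the floxed library with the most of them at 9 weeks, replicate 3, against 188 to 5356 in the Prx1-cre libraries there. Values of the members with the skeletal muscle level as a covariate are given with their other 9-week values, and the part of the thermogenic and macrophage markers was not tested.

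Gpr179, Tmem215 and Akr1cl had little signal in most libraries without Prx1-cre. Gpr179 is an orphan receptor known from the synapse between photoreceptors and ON bipolar cells of the retina, where it anchors regulators of G protein signalling. Tmem215 encodes a membrane protein, and Akr1cl an aldo-keto reductase, a family that reduces carbonyl groups of steroids, prostaglandins and sugars. Of the 31 libraries without Prx1-cre, 0 reached 10 normalized counts of Gpr179 and 0 reached it for Tmem215, and the highest values were 7.59 and 5.78. Akr1cl reached 10 in 5 of these 31. All 12 libraries labelled Prx1-cre lay above 10 for Gpr179 and for Tmem215. These counts span separately normalized tables, so 10 is not the same share of a library in all of them.

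The 250 bases before the start of these 3 genes are shown to let their upstream sequence be compared; they are RefSeq windows on GRCm38.p6, written 5′ to 3′ on the strand of the gene, with any GC box (GGGCGG or its reverse complement) in capitals. They lie at chr11:97352357-97352606 (minus strand) for Gpr179, chr4:40471930-40472179 (plus strand) for Tmem215 and chr1:65032760-65033009 (minus strand) for Akr1cl.
Gpr179: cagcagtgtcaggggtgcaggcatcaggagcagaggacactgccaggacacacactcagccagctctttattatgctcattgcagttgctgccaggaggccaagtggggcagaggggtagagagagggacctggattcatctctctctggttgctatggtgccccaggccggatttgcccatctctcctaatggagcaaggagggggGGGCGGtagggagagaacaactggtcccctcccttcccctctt
Tmem215: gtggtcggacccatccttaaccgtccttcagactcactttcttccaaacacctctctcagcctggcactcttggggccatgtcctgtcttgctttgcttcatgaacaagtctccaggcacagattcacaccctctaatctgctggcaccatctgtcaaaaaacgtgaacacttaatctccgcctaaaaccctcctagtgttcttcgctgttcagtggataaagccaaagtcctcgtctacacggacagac
Akr1cl: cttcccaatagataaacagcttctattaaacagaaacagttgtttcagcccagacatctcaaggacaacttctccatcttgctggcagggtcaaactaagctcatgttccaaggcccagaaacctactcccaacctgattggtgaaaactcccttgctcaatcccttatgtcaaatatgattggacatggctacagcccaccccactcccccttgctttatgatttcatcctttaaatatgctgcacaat
The windows shown differ in base composition, with 58.8% G and C for Gpr179, 50% for Tmem215 and 44% for Akr1cl, against a median of 52.4% over all 32851 mouse windows. Tmem215 has a second window, not shown, at chr4:40472880-40473129, with 60% G and C. Among the 3 windows shown only that of Gpr179 held a GC box, a hexamer found in 32.7% of all windows.

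Gpr179 had its largest fold difference at 9 weeks. At P25 it ran over 54.5, 105 and 124 normalized counts (lowest, median, highest) in libraries labelled Prx1-cre, against 0.683, 1.62 and 5.73 in floxed libraries. At 9 weeks the 4 Prx1-cre libraries held 719, 618, 383 and 329.8, against 6.55, 4.98, 0.940 and 7.59 in the 4 floxed ones. Every Prx1-cre library stood far above every floxed library at both ages, with log2 fold changes of 5.03 ± 0.33 at P25 and 6.54 ± 0.48 at 9 weeks (SE). Because the floxed level is a few reads, the size depends on the pseudocount: with 5 in place of 1 the log2 fold changes were 3.78 and 5.67. Gpr179 ranked 1 of 12738 tested genes by log2 fold change at P25 and 2 of 13496 at 9 weeks.

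Tmem215 was read only a few times per library without Prx1-cre. At P25 it ran over 26.0, 41.3 and 74.1 normalized counts in the libraries labelled Prx1-cre, against 0, 1.71 and 5.78 in floxed libraries. In the adult table it held 33.2, 55.1, 76.5 and 70.5 in the Prx1-cre libraries, against 3.34, 3.39, 0 and 2.58 in the floxed ones. The groups did not overlap at either age, and the log2 fold changes were 3.95 ± 0.36 and 4.31 ± 0.52 (SE). With a pseudocount of 5 they were 2.70 and 3.09, and with the skeletal muscle level as a covariate the 9-week value was 3.36.

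Akr1cl is the member that goes against the label at P25. Its values were 0.823 to 12.2 normalized counts with Prx1-cre, against 1.09 to 14.6 in floxed libraries, and its means were 5.03 ± 3.33 (SD, n = 8) against 8.15 ± 4.73 (SD, n = 7). These ranges overlap almost entirely, and the gene did not reach the level needed to be tested at that age. At 9 weeks and 4 C the same gene held 184, 383, 155 and 136 in the Prx1-cre libraries, against 1.15, 3.46, 0.980 and 7.64 in the floxed ones, a log2 fold change of 5.79 ± 0.53 (SE) that ranked 4 of 13496. With a pseudocount of 5 it was 4.67. All 4 adult Prx1-cre libraries were high, replicate 2 most of all. Age and temperature both differ between these tables and cannot be told apart. The pseudogene Gm8550 lies inside Akr1cl, and how reads were shared between them is not given in the sources used here.

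**Figure D1:**
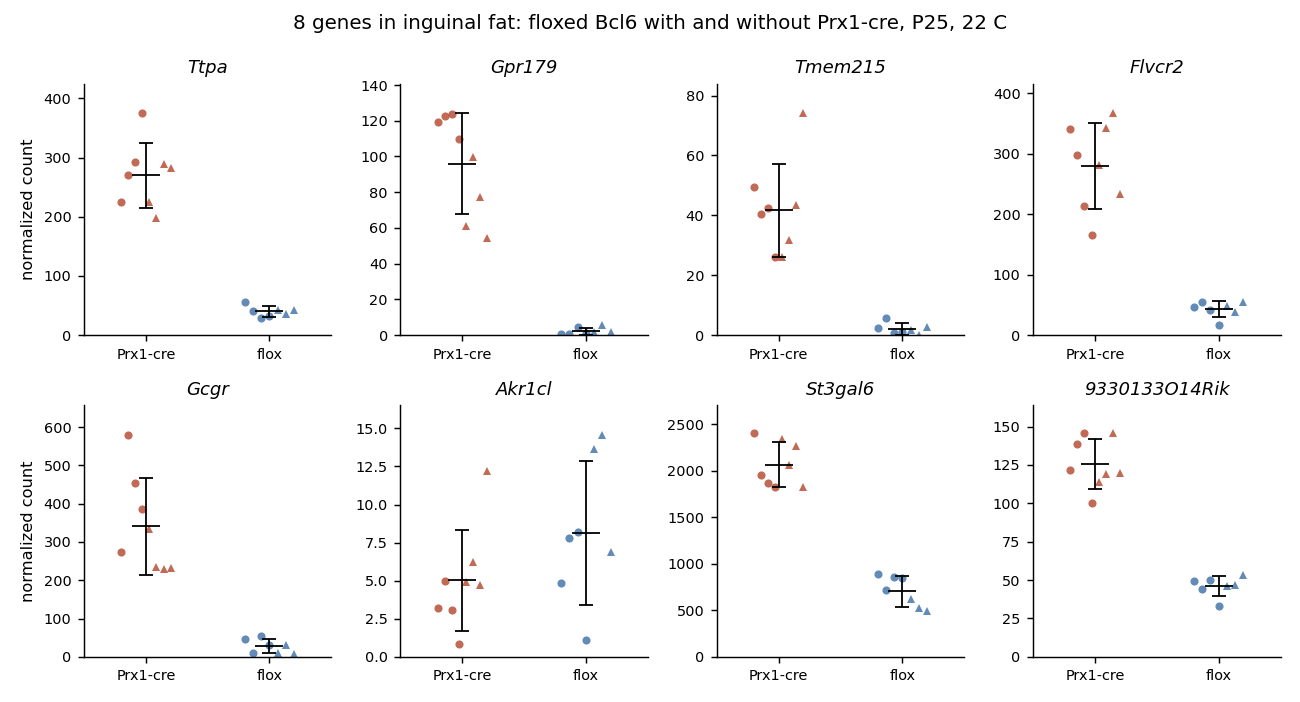
Normalized counts of the 8 genes in each P25 library (y axis, linear, from 0), with libraries labelled Prx1-cre (n = 8) left of floxed libraries (n = 7); circles are columns lettered M, triangles columns lettered F, and bars are the mean ± SD. For 7 of the 8 genes every Prx1-cre point lies above every floxed point; for Akr1cl the groups overlap.

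Ttpa, Flvcr2 and Gcgr could be measured in most or all floxed libraries and were several times higher in those labelled Prx1-cre. Ttpa encodes the alpha-tocopherol transfer protein, which in liver loads vitamin E for release to the circulation. Flvcr2 is a membrane transporter that carries choline and has been described as a haem importer, known from the endothelium of the brain. Gcgr is the glucagon receptor, which couples to cyclic AMP in hepatocytes and is also known from rodent adipocytes.

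Ttpa ranked 17 of 12738 by log2 fold change at P25 and 88 of 13496 at 9 weeks. At P25 it ran over 198, 277 and 376 normalized counts in the libraries labelled Prx1-cre (lowest, median, highest), against 28.4, 41.4 and 56.6 in floxed libraries, a ratio of means of 6.72. The adult libraries held 1457, 1639, 1544 and 1587 with Prx1-cre, against 401, 501, 285 and 418 in the floxed ones, a ratio of 3.88. The lowest Prx1-cre library was above the highest floxed library at both ages, and the 4 adult Prx1-cre values spread little, with a mean of 1557 ± 77.0 (SD). The log2 fold changes were 2.72 ± 0.16 at P25 and 1.98 ± 0.15 at 9 weeks (SE).

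Flvcr2 ran over 165, 289.6 and 367 normalized counts with Prx1-cre at P25, against 16.01, 47.3 and 55.0 in floxed libraries. Its adult values were 992, 1021, 880.4 and 1313 in the Prx1-cre libraries, against 99.2, 108, 78.1 and 124 in the floxed ones. The gap between the groups was wide at both ages, with ratios of means of 6.50 at P25 and 10.3 at 9 weeks. The non-coding gene Gm40478 overlaps Flvcr2, so reads of the pair could be split by the counting.

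Gcgr spread widely among libraries of 1 genotype at P25. It ran over 229.5, 304 and 579 normalized counts in the libraries labelled Prx1-cre, against 7.84, 31.0 and 55.4 in floxed libraries. In adults it held 297, 499.9, 565 and 305 in the Prx1-cre libraries, against 54.3, 33.7, 55.0 and 47.2 in the floxed ones. Even the lowest Prx1-cre library stood at several times the highest floxed one, and the ratio of means was 12.3 at P25 and 8.77 at 9 weeks.

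St3gal6 and 9330133O14Rik had the smallest log2 fold changes of the members that passed the filter, at both ages. St3gal6 is a sialyltransferase that caps galactose ends of glycans with sialic acid. Its window at chr16:58524254-58524503 (minus strand) is shown because it alone among the windows of the members held the first 7 bases of the BCL6 core motif, which are in capitals.
St3gal6: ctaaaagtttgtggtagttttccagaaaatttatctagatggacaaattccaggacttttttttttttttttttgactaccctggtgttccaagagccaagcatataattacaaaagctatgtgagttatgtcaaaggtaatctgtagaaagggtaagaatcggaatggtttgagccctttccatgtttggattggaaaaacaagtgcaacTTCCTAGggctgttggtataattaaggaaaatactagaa
Motifs were searched on both strands in 8 windows of 250 bases, covering 6 of the 8 members. The full core TTCCTAGAA was in 0 of these 8 windows and in 0.347% of all windows, and its first 7 bases TTCCTAG were in 1 and in 3.86%. The STAT site TTCNNNGAA, whose pattern takes in the full core, was in 0 windows of the members and in 7.02% of all; TATAAA was in 0 and in 12.4%; the E box CACGTG was in 1, before Flvcr2, and in 6.02%. The GC box was in 4 of the 8 windows, before Gpr179, Flvcr2, Gcgr and the second start of St3gal6, and in 32.7% of all. A match is a description of letters, and a missing match says only that those letters are not in that window.

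St3gal6 ran over 1819, 2003 and 2404 normalized counts in P25 libraries labelled Prx1-cre, against 488, 718 and 888 in floxed libraries. At 9 weeks it held 3358, 3721, 4445 and 4221 in the Prx1-cre libraries, against 839, 1104, 1196 and 1466 in the floxed ones. The groups were apart at both ages, with ratios of means of 2.92 and 3.42 and log2 fold changes of 1.57 ± 0.13 and 1.79 ± 0.16 (SE). Dcbld2 and the non-coding gene Gm33475 overlap St3gal6, and Dcbld2 itself was not called at either age.

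The long non-coding RNA 9330133O14Rik had the tightest values of the 8 at 9 weeks, where it held 409, 423, 400 and 381 normalized counts in the libraries labelled Prx1-cre, against 151, 152, 158 and 171 in the floxed ones. At P25 it ran over 100.1, 121 and 146 in the Prx1-cre libraries, against 33.0, 46.5 and 53.3 in floxed libraries. No library of one genotype entered the range of the other, although the log2 fold changes, 1.43 ± 0.12 and 1.35 ± 0.09 (SE), were the smallest of those measured. A non-coding gene, Gm20735, overlaps it.

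**Figure D2:**
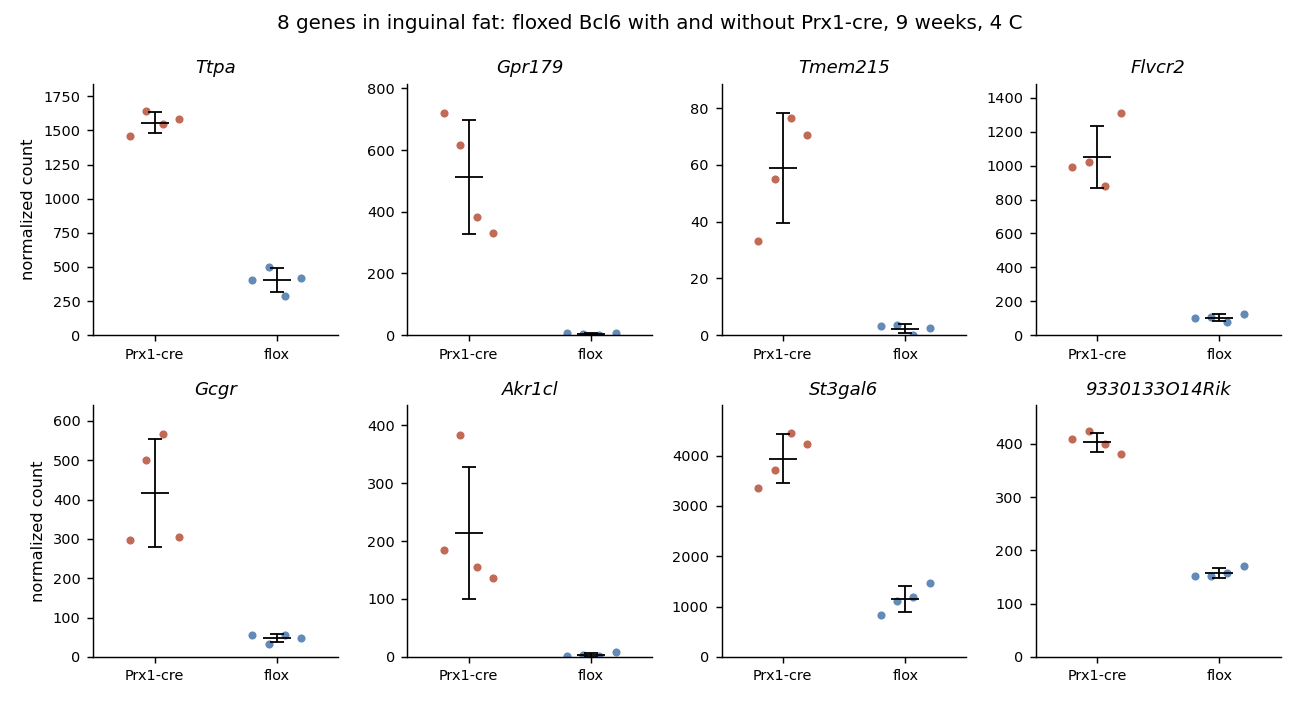
Normalized counts of the 8 genes in each library at 9 weeks and 4 C (y axis, linear, from 0), with libraries labelled Prx1-cre (n = 4) left of floxed libraries (n = 4); bars are the mean ± SD. All 8 genes, Akr1cl included, lie higher in every Prx1-cre library than in any floxed library.

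At P25 all Prx1-cre values lay above all floxed values for 7 of the 8 genes, and 7 passed the filter; over the 12738 genes tested that share was 0.652%. At 9 weeks it held for 8 of 8, against 12.2% of the 13496 genes tested there. Both counts follow from how the genes were chosen, and nothing is read from them. Without the muscle-rich floxed replicate 3 the 9-week log2 fold changes were 1.83 for Ttpa, 6.06 for Gpr179, 3.81 for Tmem215, 3.23 for Flvcr2, 3.15 for Gcgr, 5.50 for Akr1cl, 1.82 for St3gal6 and 1.35 for 9330133O14Rik. With the skeletal muscle level as a covariate and all 8 libraries they were 1.75 for Ttpa, 5.87 for Gpr179, 3.36 for Tmem215, 3.21 for Flvcr2, 2.93 for Gcgr, 5.25 for Akr1cl, 1.72 for St3gal6 and 1.33 for 9330133O14Rik.

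Hepatocyte and retinal markers were checked because Ttpa and Gcgr are known from liver and Gpr179 from retina. Of the hepatocyte markers 0 of 5 tested at P25 and 0 of 3 tested at 9 weeks were called. They summed to 288 to 927 normalized counts in Prx1-cre and 278 to 592 in floxed libraries at P25, and to 1677 to 1884 and 1438 to 2075 at 9 weeks, where Apob was at 0 in all 8 libraries. Of the 9 retinal markers in the tables, 7 stayed below 10 in every library at P25 and 5 at 9 weeks. Their sum was 17.4 to 46.3 in Prx1-cre and 20.5 to 37.7 in floxed libraries at P25, and 56.7 to 77.9 and 45.1 to 61.0 at 9 weeks, with 0 of 1 and 0 of 2 tested markers called. Flvcr2 is known from endothelium, and of the endothelial markers 0 of 9 tested were called at P25. At 9 weeks 2 of 10 were called higher, where 9.01% of all tested genes were. Their sum there was 20129 to 23579 in Prx1-cre and 12981 to 21567 in floxed libraries. The part of this list in the Flvcr2 values was not tested.

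Column names at P25 include an M or an F that the labels do not explain. Xist, the RNA of the inactive X chromosome, held 1.43 to 26.4 normalized counts in columns lettered M and 4324 to 10468 in those lettered F. The filter was applied over all P25 libraries, and 7 members passed it, Gpr179 and Tmem215 only through libraries labelled Prx1-cre. In floxed libraries these 2 did not exceed 5.73 and 5.78, so their letter comparison there rests on a few reads and is no test. Within floxed libraries 1 of the 7 members was called: St3gal6 was higher in M columns, at 828 ± 75.4 (SD, n = 4), than in F columns, at 544 ± 69.9 (SD, n = 3). The log2 difference was 0.61 with an SE of 0.13 (adjusted p = 0.0490 in limma, with 0.652% of all tested genes called). That call is at the edge: it held without floxed M2 (adjusted p = 0.0235) or Prx1-cre M1 (0.0275) and was lost without each of the other libraries, at up to 0.217. Within Prx1-cre libraries 0 of the 7 members tested were called between the letters, where 0.236% of genes were. The M and F columns of Prx1-cre libraries held 2010 ± 268 and 2120 ± 233 of St3gal6 (SD, n = 4 each), whose ranges overlapped.

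The other members, Gpr179 and Gcgr among them, did not pass between the letters. For Gpr179 the M columns of Prx1-cre libraries held 119 ± 6.31 and the F columns 73.2 ± 20.2 (SD, n = 4 each), and these ranges did not overlap, but the limma adjusted p was 0.750. That fit pools the spread of both genotypes, so it takes in the floxed libraries, at 0.683 to 5.73 normalized counts of Gpr179. The share of all genes without overlap between the letters was not counted. The means of Gcgr were 424 ± 128 in M and 257 ± 51.3 in F columns (SD, n = 4 each; limma adjusted p = 0.753). Whether letter effects differ between genotypes was not tested.

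**Figure D3:**
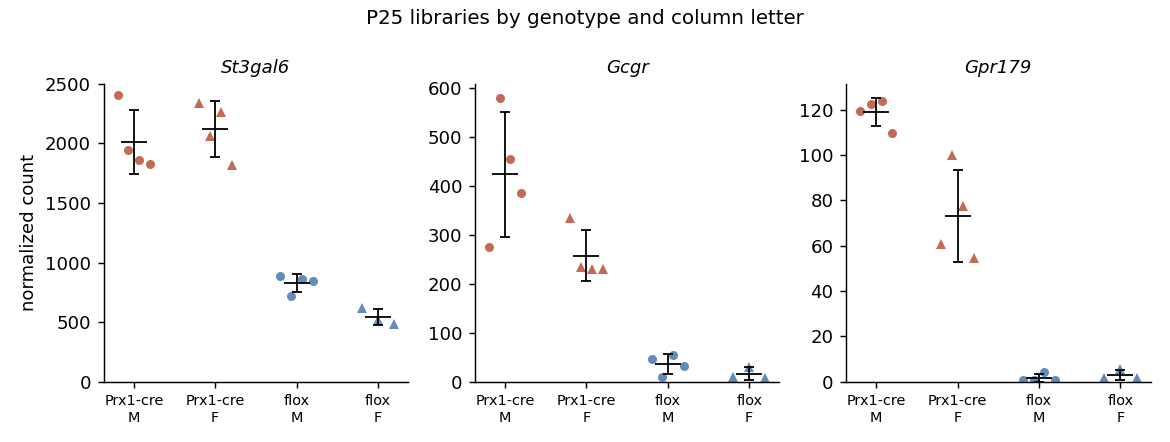
Normalized counts of St3gal6, Gcgr and Gpr179 in the P25 libraries (y axis, linear, from 0), split by genotype and by the letter of the column, Prx1-cre left of flox and M left of F; bars are the mean ± SD. St3gal6 separates the letters in floxed libraries, at 828 against 544, while the genotypes are farther apart than the letters for all 3 genes.

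The 3 comparisons without floxed Bcl6 show whether these genes also move with housing temperature or with loss of TrkA in Th-cre cells. Of the 8 genes, Ttpa was called in each of them and no other member was. At 30 C against 22 C, 4 members passed the filter and 1 was called higher, where 4.45% of 12283 tested genes were called in either direction and 1.29% higher. In the TrkA comparison 4 passed and 1 was called higher, against 2.66% of 11899 genes in either direction and 1.34% higher, and at 4 C against 22 C 5 passed and 1 was called higher, against 4.47% of 12118 in either direction and 2.03% higher. The first 2 of these comparisons share their 4 control libraries, so their values for a gene are not independent.

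Ttpa was higher at 30 C than at 22 C in P28 wild-type fat. It held 39.9, 26.2, 31.5 and 31.6 normalized counts at 30 C, against 14.8, 13.0, 14.9 and 18.2 at 22 C. No 30 C library entered the 22 C range, which held upward for 5.23% of tested genes, and the log2 fold change was 1.03 ± 0.22 (SE; limma adjusted p = 0.0328; higher in 4 of 4 libraries). The call was lost without any single library except 22 C replicate 3 (adjusted p = 0.0471 without that library, and up to 0.100 without another), with log2 fold changes of 0.93 to 1.13. Skeletal muscle markers summed to 352 to 18395 at 30 C and 354 to 1019 at 22 C, with 0 of 9 called, and with their level as a covariate Ttpa had a log2 fold change of 1.02 and an adjusted p of 0.162. Of 8 thermogenic markers tested, 5 were lower at 30 C, with Ucp1 at 109 ± 52.0 against 1758 ± 570 (SD, n = 4 each), and 3 of 10 macrophage markers were higher. Adipocyte markers summed to 96934 to 111350 at 30 C and 69297 to 92654 at 22 C, with 1 of 9 called higher. The part of these 3 lists in the result was not tested. The groups also differed in Xist, which was high in 30 C replicates 1, 2 and 3 and in 22 C replicates 3 and 4. It was low in 30 C replicate 4 and in 22 C replicates 1 and 2. With Xist as a covariate the Ttpa call was lost.

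In the TrkA comparison Ttpa held 45.0, 48.0, 46.8 and 24.8 normalized counts in floxed TrkA, Th-cre libraries, against 13.0, 11.4, 13.2 and 15.9 in wild-type ones. Replicate 4 of the TrkA group stood below its 3 fellows and still above every wild-type library, and a rise without overlap was seen for 5.63% of tested genes. The log2 fold change was 1.51 ± 0.27 (SE; limma adjusted p = 0.0207; higher in 4 of 4 libraries). Leaving out TrkA replicate 1, 2 or 3, or wild-type replicate 2 or 4, ended the call, at adjusted p of 0.0722, 0.0748, 0.0700, 0.0666 and 0.0511 in that order. Xist was low in TrkA replicates 1, 2 and 4 and high in replicate 3, while in wild type it was low in replicates 1 and 2 and high in 3 and 4. Muscle markers were higher in the TrkA libraries, 3 of 10 by the test, and summed to 1239 to 6758 against 316 to 911 in wild type; with their level as a covariate the log2 fold change was 1.34 and the adjusted p 0.391. Of 9 macrophage markers tested 5 were higher, with sums of 7101 to 8811 against 3946 to 5338, and 2 of 8 thermogenic markers were lower. Schwann cell markers summed to 2792 to 3931 in TrkA libraries and 4037 to 6161 in wild-type ones, with 2 of 10 called lower. Adipocyte markers summed to 81338 to 108362 against 61405 to 81038, with 1 of 9 called lower, and 1 of 2 hepatocyte markers was called higher at sums of 71.2 to 194 against 171 to 308. The part of these lists in the result was not tested.

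At 9 weeks wild-type fat held more Ttpa in the cold. The libraries at 4 C held 105, 110.2, 129 and 149 normalized counts, against 39.1, 30.7, 57.1 and 59.9 at 22 C. Again the groups did not overlap, as for 9.16% of tested genes in this direction, and the log2 fold change was 1.42 ± 0.25 (SE; limma adjusted p = 0.0265; higher in 4 of 4 libraries). The call ended without 22 C replicate 1 or 2 (adjusted p = 0.0795 and 0.0554) and without 4 C replicate 1, 2, 3 or 4 (0.0893, 0.0539, 0.0550 and 0.0634), while the log2 fold change stayed within 1.24 to 1.56. Here thermogenic markers went the other way from the P28 comparisons: 3 of 9 were higher at 4 C, with Ucp1 at 21153 ± 13417 against 289 ± 150 (SD, n = 4 each), and 0 of 10 macrophage markers were called. Schwann cell markers summed to 3281 to 3756 at 4 C and 6441 to 7625 at 22 C, with 4 of 10 called lower, and endothelial markers to 4360 to 5453 against 6091 to 6601, with 1 of 9 called lower. The part of these lists in the result was not tested.

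**Figure D4:**
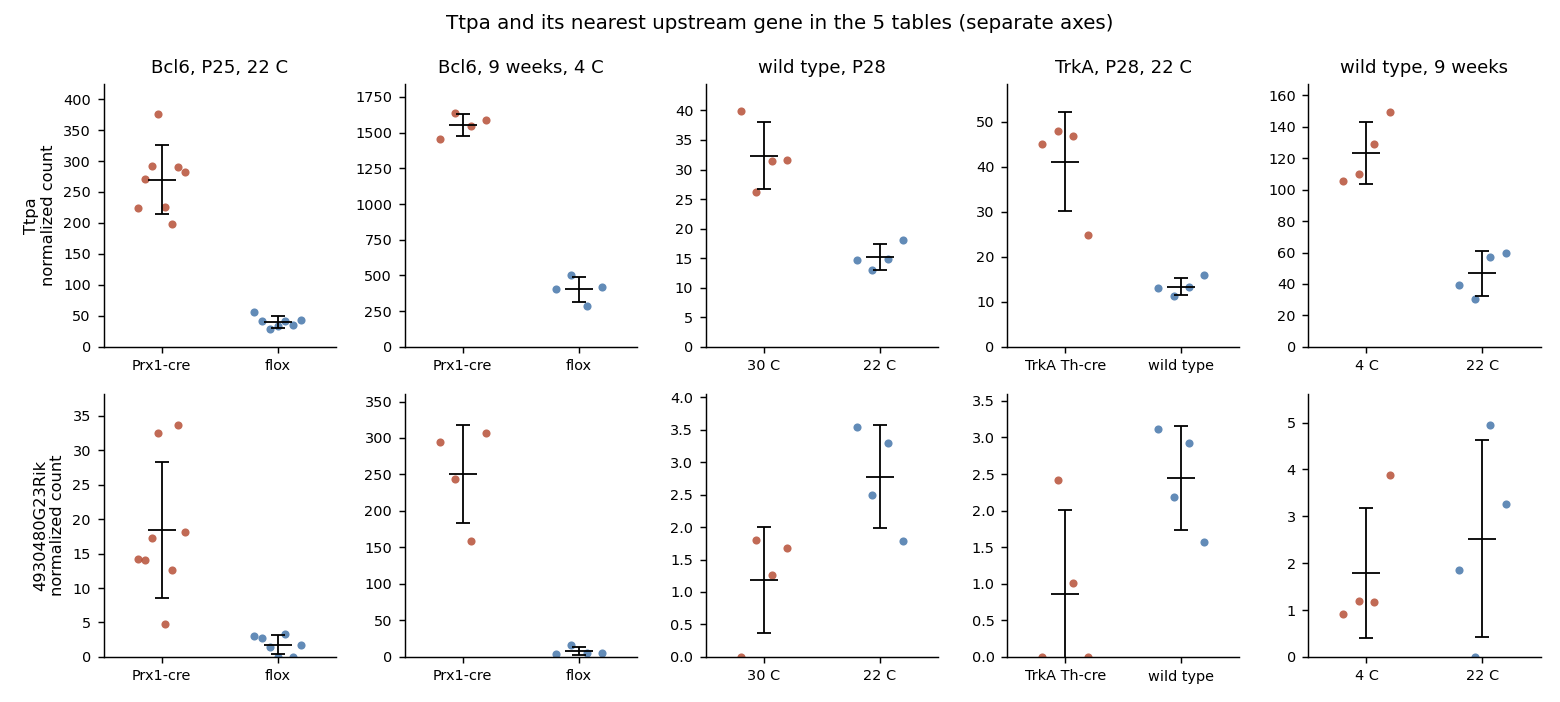
Normalized counts of Ttpa (upper row) and of its nearest upstream neighbour 4930480G23Rik (lower row) in each library of the 5 tables, each panel with its own linear axis from 0 and with bars for the mean ± SD. Ttpa is higher in the left group of every panel; 4930480G23Rik is so only in the 2 Bcl6 panels and stays below 5 normalized counts in the other 3.

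None of the other members that could be tested in those 3 comparisons was called. Flvcr2 held 19.5 ± 6.27 at 30 C and 19.3 ± 3.49 normalized counts at 22 C (SD, n = 4 each), with a 95% interval of the log2 fold change of -0.64 to 0.60. In the TrkA comparison its interval was -0.61 to 0.78, and in the cold it held 34.8 ± 9.70 against 26.4 ± 6.64 at 22 C, an interval of -0.29 to 1.06. St3gal6 had intervals of -0.23 to 0.54 at 30 C, -0.66 to 0.28 with TrkA loss and -0.44 to 0.24 in the cold. A p that misses the threshold does not show equal levels. For 9330133O14Rik the intervals were -0.56 to 0.64, -0.77 to 0.34 and -0.44 to 0.40.

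Gcgr, Gpr179, Tmem215 and Akr1cl were too low in wild-type fat for most of these tests. Gcgr held 6.03, 6.71, 8.24 and 5.49 normalized counts at 30 C, against 22.1, 10.9, 9.59 and 10.7 at 22 C. Each 30 C library was below each 22 C library, as for 7.72% of tested genes, but the gene did not pass the filter and has no test. In the cold Gcgr passed with values of 0 to 26.8 at 4 C against 0 to 18.2 at 22 C, which overlap throughout (interval -2.69 to 3.18). Gpr179 did not exceed 6.30 normalized counts, nor Tmem215 4.90, in any wild-type or TrkA library. Akr1cl reached 52.9 in replicate 1 at 9 weeks and 4 C, against 1.13 to 2.03 in the other 3 libraries at 4 C, and 24.7 in replicate 4 of the TrkA group.

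**Figure D5:**
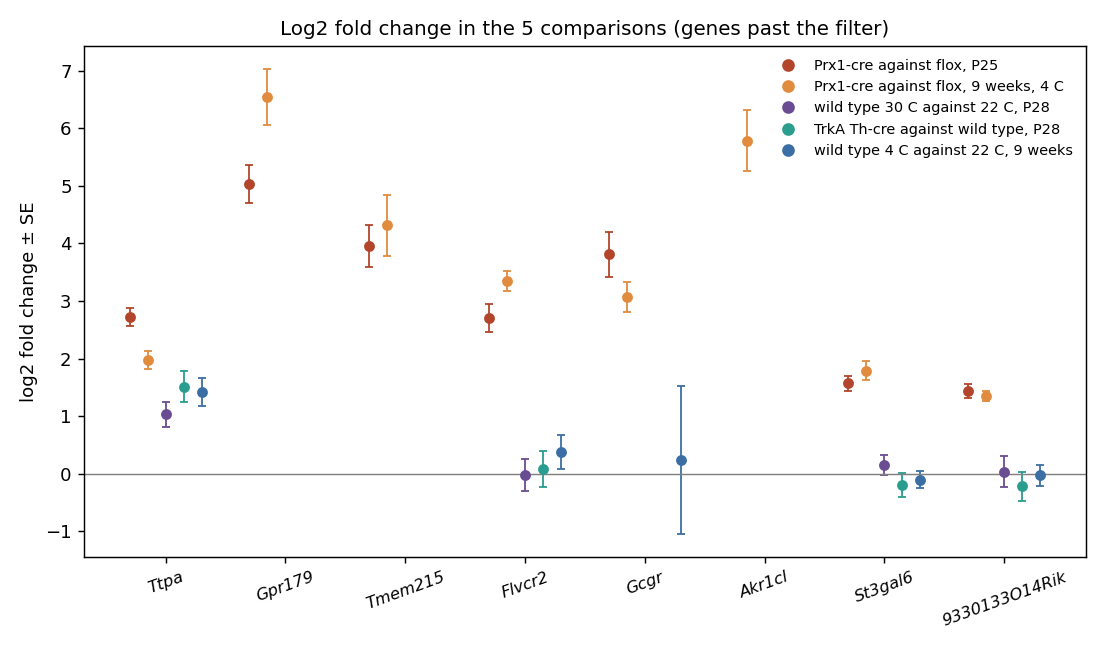
Log2 fold change ± SE of each gene in each of the 5 comparisons in which it passed the filter (y axis, log2 scale; the first group named in the legend over the second). The points of the 2 Bcl6 comparisons, which chose the genes, lie between 1.35 and 6.54, and of the remaining points only those of Ttpa, at 1.03 to 1.51, passed the test.

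The genes next to the members on the chromosome were followed in the Bcl6 tables. For each member the nearest gene on either side that passed the filter was taken in each table, 16 per table; the sets differ in 1 gene, Rnf166 at P25 and Snai3 at 9 weeks beside 9330133O14Rik. Of these, 3 were called higher and 0 lower at P25, and 4 higher and 0 lower at 9 weeks, where 1.56% and 9.01% of all tested genes were called higher. The median log2 fold change of the neighbours was 0.16 at P25 and 0.19 at 9 weeks, against 0.00 and -0.02 over all genes. Both genes that flank Ttpa were called at both ages. The upstream gene, 4930480G23Rik, passed the filter at both ages only through the Prx1-cre libraries. Its calls, which the counts above include, are therefore no test.

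The non-coding gene 4930480G23Rik, 2155 bases upstream of Ttpa, followed the genotype closely. At P25 it averaged 18.4 ± 9.94 normalized counts in the libraries labelled Prx1-cre (SD, n = 8) and 1.76 ± 1.37 in floxed libraries (SD, n = 7). Its log2 fold change was 2.84 with an SE of 0.45 (adjusted p = 0.00135 in limma; above all floxed libraries in 8 of 8). At 9 weeks it held 295, 243, 159 and 306 in the Prx1-cre libraries, against 4.36, 15.6, 4.75 and 5.05 in the floxed ones (log2 fold change 5.03 ± 0.40; limma adjusted p = 0.000348). No library labelled Prx1-cre entered the floxed range at either age. At P25 it passed the filter only through the libraries labelled Prx1-cre, none of the floxed ones exceeding 3.29, so a gene that passed this way had to differ. The same holds at 9 weeks, where only floxed replicate 2, at 15.6, reached 10. Its adjusted p-values at both ages are therefore a description and not a test. Of the 15 P25 fits that left out 1 library, 7 gave it no test because it fell below the filter. The other 8 kept it through the libraries labelled Prx1-cre again, so they are no test either. In wild-type and TrkA libraries, where Ttpa differed with temperature and genotype, 4930480G23Rik did not exceed 4.95 and the groups overlapped in all 3 tables. Ggh, a lysosomal folate hydrolase 11175 bases beyond the other end of Ttpa, differed less: 524 ± 35.5 against 402 ± 47.5 at P25 (log2 fold change 0.39; limma adjusted p = 0.00983) and 1340 ± 124 against 847 ± 62.4 at 9 weeks (0.66; adjusted p = 0.00267).

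Of the neighbours of other members, Rnf166, 19669 bases from 9330133O14Rik, was higher at P25 (544 ± 55.8 in Prx1-cre against 386 ± 33.9 in floxed libraries; limma adjusted p = 0.00135). At 9 weeks Mcrip1, next to Gcgr, was higher (log2 fold change 0.46; adjusted p = 0.00301), as was Mrpl45, next to Gpr179 (0.29; adjusted p = 0.0326). With 1 library left out, Mrpl45 stayed past the threshold only without floxed replicate 3 or Prx1-cre replicate 4, and reached 0.0962 without floxed replicate 2. Mvd, 234 bases from 9330133O14Rik, was not called at either age. The nearest tested neighbours of Tmem215, Flvcr2, Akr1cl and St3gal6 were not called at either age.

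Relatives of the members were read against the shares of all tested genes, 1.56% called higher and 1.97% lower at P25 and 9.01% and 5.46% at 9 weeks. Of all 21 calls in the gene lists at 9 weeks, 13 were lost without some single library, at up to 0.128. The receptors closest to Gcgr, the class B peptide hormone receptors with their accessory proteins, had 0 of 6 tested genes called at P25 and 0 of 8 at 9 weeks, and 6 of the 15 in the tables, Glp1r among them, reached 10 normalized counts in no library of the Bcl6 tables. Of the sialyltransferases and sialidases 0 of 13 were called at P25, and at 9 weeks 1 of 14 was higher and 1 lower: St3gal5, the ganglioside synthase, fell to 195 ± 64.3 in Prx1-cre against 690.1 ± 76.6 in floxed libraries (SD, n = 4 each; -1.88 ± 0.23 on the log2 scale, adjusted p = 0.00232 by limma). In wild-type fat the same gene was higher at 4 C, 213 ± 73.2 against 68.6 ± 26.8 at 22 C (log2 fold change 1.65; limma adjusted p = 0.0374), a call that held without 22 C replicate 3 and was lost without each other library, at up to 0.116. Among aldo-keto reductases 0 of 11 were higher and 1 lower at P25, and 1 of 10 was higher and 1 lower at 9 weeks; Akr1b10 fell there by 0.63 on the log2 scale (adjusted p = 0.00262).

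In the Bcl6 tables, genes of the vitamin E and haem lists were called at 9 weeks and not at P25. Of the vitamin E and lipoprotein lipid handling genes, 0 of 11 were called at P25 and 2 of 11 were higher at 9 weeks, among them Abca1, which exports cholesterol and tocopherol, at 8957 ± 1072 in Prx1-cre against 6187 ± 349 in floxed libraries (SD, n = 4 each; limma adjusted p = 0.00857). Of the haem and choline genes, 0 of 17 were called at P25, and 3 were higher and 3 lower of 17 at 9 weeks, where 9.01% and 5.46% of all tested genes were. All 6 of these calls were lost without some single library. Hmox1, which breaks down haem, was higher by 0.58 on the log2 scale (adjusted p = 0.0158), a call lost without floxed replicate 2 (0.0508) and with the muscle covariate (0.0522).

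The partners of Gpr179 that were called were lower. Of the 6 partners tested at P25, 0 were higher and 2 lower, and of 7 at 9 weeks 0 were higher and 2 lower, where 1.97% and 5.46% of all genes were called lower. Rgs7, the regulator that Gpr179 anchors in retina, fell to 113 ± 18.7 in libraries labelled Prx1-cre (SD, n = 8), against 292 ± 83.1 in floxed libraries (SD, n = 7), at P25 (log2 fold change -1.32 ± 0.17; limma adjusted p = 0.000301). At 9 weeks it fell to 423 ± 46.7, against 962 ± 122 (SD, n = 4 each; -1.18 ± 0.12; adjusted p = 0.000962). Gnao1, the G protein subunit that Rgs7 turns off, fell by 0.70 at P25 (adjusted p = 0.00777) and by 0.87 at 9 weeks (adjusted p = 0.0264); the second call was lost without floxed replicate 1 (0.0787) or 2 (0.0608) and without Prx1-cre replicate 1 (0.0771) or 4 (0.0656), and with the muscle covariate (0.0893). Rgs7 and Gnao1 were also lower in wild-type fat at 30 C than at 22 C, by log2 fold changes of -0.80 and -0.73 (limma adjusted p = 0.0296 and 0.0420). The Rgs7 call was lost without 22 C replicate 2 or 4 and without 30 C replicate 1, 2 or 4, at up to 0.0983, and the Gnao1 call without every library but 22 C replicate 3, at up to 0.103. With the muscle covariate both were lost, at 0.182 for Rgs7 and 0.152 for Gnao1. Grm6, Lrit3, Cacna1f and Gpr158, also on that list, stayed below 10 normalized counts in both Bcl6 tables.

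The repressor machinery and the STAT5 pathway were read in the same fits. Besides Bcl6 itself, 2 of the other 15 genes of the corepressor list were higher at P25, Hdac4 at 393 ± 32.5 in Prx1-cre against 298 ± 29.1 in floxed libraries (limma adjusted p = 0.00662) and Mta3 (0.0238), and 0 were lower. The Mta3 call was lost without floxed F3 (0.0562), M1 (0.0543) or M3 (0.0607) and with the muscle covariate (0.0619). At 9 weeks 3 were higher, Bcl6 counted, and 1 lower, with Tbl1x at a log2 fold change of 0.40 (adjusted p = 0.0138). Among 11 growth hormone and Stat5 genes tested, Socs2, a feedback inhibitor of the pathway, rose at both ages by 2.84 ± 0.19 and 3.67 ± 0.27 on the log2 scale (limma adjusted p = 1.82e-07 and 0.000291). Prlr, the prolactin receptor, rose to 670.3 ± 166 in Prx1-cre against 318 ± 159 in floxed libraries at P25 (adjusted p = 0.0170). Stat5a was lower at 9 weeks (adjusted p = 0.0482), a call that with 1 library left out held only without floxed replicate 3.

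Among the genes with the pattern most like the mean log2 level of the 8 were, over the 15 P25 libraries, Usp29, Mest, Socs2 and Nt5e, with Pearson r of 0.971, 0.966, 0.965 and 0.959. Over the 8 adult Bcl6 libraries they were Azin2, Rab7b, Cep41, Ppic and Sema4a, with r of 0.991, 0.991, 0.990, 0.990 and 0.989. Libraries fall into their 2 genotypes for these genes, so r includes the gap between genotypes. Usp29, a deubiquitinase gene, had 98.9 ± 26.1 normalized counts in libraries labelled Prx1-cre (SD, n = 8) and 8.07 ± 3.47 in floxed libraries (SD, n = 7).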

How the data were processed

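Sequencing used stranded mRNA libraries, per the labels' protocols. The deposited values are a signal, normalized counts per gene, made by the authors with kallisto and DESeq2 on build mm10, per the submitters' processing notes. Their versions, settings and use of strand in counting: not given in the sources used here. Each of the 5 tables was normalized on its own, and tests stayed within a table. The members and gene lists were chosen with earlier results of these data known.

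Values were tested with limma 3.58.1 (trend, R 4.3.3) as log2(value + 1), for genes that reached 10 in a number of libraries equal to the smaller group or more, with Benjamini-Hochberg adjustment over all tested genes at 0.05. A fold change on this scale understates the change of low genes. Depth was estimated from the value of 1 read; the share of low values that came out as whole multiples of it was 27.9% to 74.4% (tolerance 0.02), so no count test was run. The fits were tested on simulated data. Genes named outside the members are Bcl6, Ucp1, up to 3 genes of each list by smallest p, the nearest tested gene on each side of a member, and the 5 most alike in pattern, some of which are not reported here; the list members that stayed below 10, and Mta3, Stat5a and Xist where they fall outside this, were chosen after their values were seen. Columns of the P25 table were matched to groups by their names; the comparison of column letters was added after seeing the data. Promoter windows came from RefSeq. Scripts used Python 3.11.15 and matplotlib 3.10.9.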

Additional observations from a re-analysis of the deposited data

Results flagged for a closer look

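In 5 of 80 sets of 1 gene in 1 group, a single library stood apart from the rest by Dixon's ratio, the gap to the nearest library over the range of the group. Chance alone gives about 1 in 20 for normally distributed values, and the ratio was taken on untransformed normalized counts. The P28 wild-type libraries at 22 C enter under both tables that hold them, so neither the 80 sets nor the 5 flags are all separate. Flvcr2 was low in floxed library M4 at P25, with 16.01 normalized counts against 38.7 to 55.0 in the other floxed libraries (ratio 0.582). Ttpa was low in replicate 4 of the TrkA group, with 24.8 against 45.0 to 48.0 (ratio 0.871), and it was still above all wild-type libraries there. Gcgr was high in replicate 1 of the P28 wild-type libraries at 22 C, with 22.1 against 9.59 to 10.9 in the temperature table (ratio 0.894) and 18.7 against 8.17 to 9.19 in the TrkA table (ratio 0.904), which hold the same library. Akr1cl was high in replicate 1 of the wild-type libraries at 9 weeks and 4 C, with 52.9 against 1.13 to 2.03 (ratio 0.983).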

How the results depend on the processing

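The Ttpa calls in wild-type and TrkA fat kept their direction under every alternative that tested the gene and often lost the threshold. The number of members called, 1 in each of these comparisons, was 0 at 30 C with an Xist covariate, a filter at 50, no filter, the replicate block or a muscle covariate, was 0 in the TrkA comparison with a filter at 50, the block or the muscle covariate, and was 0 to 1 with 1 library left out in all 3. The filter at 50 removed Ttpa from both of those P28 comparisons, where its highest values were 39.9 and 48.0, so it was not tested there. With the block the adjusted p of Ttpa (limma) was 0.104 at 30 C, 0.0509 for TrkA and 0.0101 at 4 C. The block also ended the calls of Mta3 at P25 (0.0777), of Hmox1 (0.0581), Stat5a (0.135), Tbl1x (0.0560) and Mrpl45 (0.0594) at 9 weeks, and of Rgs7 (0.0505) and Gnao1 (0.0936) at 30 C; Gnao1 at 30 C was also lost with no filter (0.0576), as was Stat5a (0.0608), which had 0.0507 with TMM factors. Replicate numbers did not pair the samples throughout: correlations of same-numbered deviations ran from -0.662 to 0.768 and no table had every pair above 0.1. Between 4 C and 22 C they were 0.768, 0.501 and 0.508 for replicates 2, 3 and 4, and -0.262 for replicate 1. In both of those groups Xist was low in replicates 1 and 2 and high in 3 and 4, so the numbers there carry a shared difference.

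Counts of called genes moved more. At P25, 450 genes were called, 731 with the replicate block and 288 (without floxed M3) to 666 (without floxed F4) with 1 library left out; in the Bcl6 libraries at 9 weeks these numbers were 1953, 1171 and 1055 (without floxed replicate 1) to 3548 (without floxed replicate 3). At 30 C 547 were called, 236 with the block, 102 with the muscle covariate and 176 to 714 without 22 C replicate 4 or 3; for TrkA 317, 13 with the muscle covariate and 93 to 870 without wild-type replicate 4 or TrkA replicate 4. Between 4 C and 22 C 542 were called, 2226 with the Xist covariate, 356 with no filter, 1666 with the block, 1897 with the muscle covariate and 36 to 356 without 4 C replicate 1 or 22 C replicate 3, the lowest and highest with 1 library left out in each comparison.

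Signs reversed only for uncalled members. Flvcr2 at 30 C was 0.0069 with the muscle covariate and -0.21 to 0.081 with 1 library left out, and -0.11 to 0.27 for TrkA. With 1 library left out 9330133O14Rik ran from -0.13 to 0.25 at 30 C and from -0.078 to 0.067 at 4 C, Gcgr from -0.55 to 1.12 at 4 C and St3gal6 from -0.17 to 0.0031 at 4 C. St3gal6 between column letters had adjusted p of 0.0503 with TMM factors, 0.0830 with a filter at 50 and 0.0690 with the muscle covariate. The Xist covariate was not run for the adult Bcl6 table, whose 8 libraries are all high in Xist. Near 1 read, Gpr179, Tmem215 and Akr1cl cannot be ordered among libraries without Prx1-cre.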
